A study of Mus musculus with 2 samples.

Results

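The mitochondrial chromosome of the mouse (chrM, mm10) and the stretch of chromosome 1 that repeats a piece of it were read in RNA of embryonic day 11.5 liver. The members were chosen by name and place and not by level. They are the 37 genes of the mitochondrial chromosome, whose symbols start with mt-, and the 7 gene rows in a window of chromosome 1 set around Gm28437, which reach from position 24611535 to position 24616197. Together they make up 44 of the 69691 rows of each deposited table, of which 43346 are mouse genes with Ensembl identifiers. By class they are 13 coding genes, 2 rRNA genes, 22 tRNA genes and 7 nuclear copy rows.

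The mitochondrial genome is a small circle present in many copies per cell. It is transcribed from both strands into long precursors, and the tRNA genes that punctuate it mark where the precursors are cut into rRNAs, tRNAs and mRNAs, most of which then receive a poly(A) tail. Its coding genes supply core subunits of respiratory complexes I, III and IV and of the ATP synthase, complex V, while all other subunits and the proteins that copy, transcribe and translate the circle come from the nucleus. Pieces of mitochondrial DNA have also been inserted into nuclear chromosomes, and such insertions, known as NUMTs, are annotated as pseudogenes.

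The tissue was healthy liver of strain B6NCrl embryos, pooled from males and females, and there were 2 biological replicates of this 1 group. The label of replicate 1 names 109 embryos, and the label of replicate 2 says only that embryos were pooled. RNA above 200 bases with spike-in RNAs entered each library in an amount of 1 cell-equivalent and was amplified by a SmartSeq protocol, which starts from poly(A) tails. The assay is titled single-cell RNA-seq in the labels although the source is pooled tissue, and no condition is contrasted with another, so values are given for replicate 1 and replicate 2 without a p-value. The spread between libraries therefore covers this amplification as well as the tissue.

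The libraries are of like depth, with 33289699 estimated reads for replicate 1 and 32607453 for replicate 2. TPM, the unit of level used below, divides a row's estimated reads by its effective length and brings the rows of a library to a fixed sum, and detection means 1 TPM or more. Of the 44 members, 21 were detected in both libraries, against 15% of all Ensembl rows. They were all 13 coding genes, both rRNA genes and 6 of the 7 copy rows. None of the 22 tRNA genes was.

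The 7 copy rows are colinear with the mitochondrial circle from the end of mt-Co1 to the middle of mt-Nd4, on the minus strand. They span 4663 bases of chromosome 1 (24611535 to 24616197), against 4662 bases of the mitochondrial chromosome (6381 to 11042). In order they repeat mt-Co1, mt-Co2, mt-Atp6, mt-Co3, mt-Nd3, mt-Nd4l and mt-Nd4, and they are named Gm29216, Gm28661, Gm10925, Gm28437, Gm28438, Gm10222 and Gm28439. The extra base lies between the starts of mt-Nd3 and mt-Nd4l, which are 419 bases apart in the copy and 418 in the circle. The span also includes 5 tRNA genes and mt-Atp8, for which the annotation has no copy row.

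Over the 4149 bases in copy rows, 4142 were identical to the mitochondrial gene, or 99.8%. All 7 differences lie in 2 rows. Gm29216 carries T1056A, C1057T, A1059G, A1060G, C1062A and A1066T relative to mt-Co1, and Gm28438 carries T3C relative to mt-Nd3. In this notation the mitochondrial gene's base comes first, then its position counted from 1 at the gene's 5′ end, then the copy's base. The starts of these copies are shown with the matching stretch of the gene, because no other base in any copy row tells a copy from its gene. Capitals mark the bases that differ. The stretches are chr1:24616138-24616197 (minus strand) with chrM:6381-6440 (plus strand), and chr1:24613060-24613119 (minus strand) with chrM:9459-9518 (plus strand), all in mm10 and read from the GENCODE M21 transcripts.
Gm29216: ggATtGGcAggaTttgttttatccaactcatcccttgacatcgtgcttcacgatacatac
mt-Co1: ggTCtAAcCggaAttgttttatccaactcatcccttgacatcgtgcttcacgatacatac
Gm28438: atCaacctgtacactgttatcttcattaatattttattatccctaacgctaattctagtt
mt-Nd3: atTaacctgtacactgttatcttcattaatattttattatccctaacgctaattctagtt

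All copy rows but that of mt-Co1 stop before their gene does, and in Gm28661, Gm10925, Gm28437, Gm10222 and Gm28439 this is the only difference found. The copy rows of mt-Co2, mt-Atp6, mt-Nd3 and mt-Nd4l end 3 bases before the gene does. That of mt-Co3 ends 1 base before, and that of mt-Nd4 ends 502 bases before. These are the ends of annotated rows. Chromosome 1 sequence past them was not compared, so whether it holds the remaining bases is not shown here. The ends of mt-Co3 and mt-Atp6, the highest of the copied genes, are shown with those of their copies, and capitals mark the bases that lie past the end of the copy row. For mt-Co3 they are chr1:24613189-24613287 (minus strand) with chrM:9291-9390 (plus strand), and for mt-Atp6 chr1:24613974-24614030 (minus strand) with chrM:8548-8607 (plus strand).
Gm28437: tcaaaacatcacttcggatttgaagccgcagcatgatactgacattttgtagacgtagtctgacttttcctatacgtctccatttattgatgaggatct
mt-Co3: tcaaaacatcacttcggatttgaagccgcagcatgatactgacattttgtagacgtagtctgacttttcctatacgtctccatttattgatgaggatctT
Gm10925: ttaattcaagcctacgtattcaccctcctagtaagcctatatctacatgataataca
mt-Atp6: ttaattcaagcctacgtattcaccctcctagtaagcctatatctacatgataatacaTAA

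How much a read can say about its origin follows from these sequences. In the deposited tables the effective length of each transcript of at least 100 bases is 99 below its length, which is the relation for reads of 100 bases. Cut into windows of 100 bases, mt-Co3 has 685 windows, of which 684 are also in Gm28437 and 1, its last, is in no other annotated transcript. Of the windows of mt-Co2, mt-Atp6 and mt-Nd4l, 3 in each gene are private to it, and mt-Nd3 has 6. Private here means absent from all other annotated transcripts, and chromosome 1 sequence outside the rows was not searched. Gm28661, Gm10925, Gm28437, Gm10222 and Gm28439 have no private window at all, Gm28438 has 3 and Gm29216 has 13. The longer genes are better separated, with 1000 private windows of 1446 in mt-Co1 and 502 of 1279 in mt-Nd4. In mt-Rnr1, mt-Rnr2, mt-Nd1, mt-Atp8, mt-Nd5, mt-Nd6 and mt-Cytb every window is private.

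A second group of copies, on chromosome 2, shares some windows with mt-Co1, mt-Co2 and mt-Nd2 but was given few reads. Gm13340, Gm13341 and Gm13339 are not members, and the highest of them, Gm13341, stood at 3.23 TPM in replicate 1 and 2.28 TPM in replicate 2. The largest number of gene windows involved was 88 of 585 in mt-Co2.

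The deposited tables nonetheless divide the reads of each pair, and the division differs widely from pair to pair. The copy Gm28437 was given 149460 reads in replicate 1 and 153068 in replicate 2, while mt-Co3 was given 27502 and 34646. The copy thus holds 84.5% of the reads of this pair in replicate 1 and 81.5% in replicate 2. The next pair on the circle goes the other way: Gm10925 holds 5.10% and 3.28% of the reads it shares with mt-Atp6. These rows stand next to each other on both chromosomes, and each copy is identical to its gene over its whole length.

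The remaining pairs range from a share near 0 to a share like that of Gm28437. Gm10222 holds 82.4% of the reads of the mt-Nd4l pair in replicate 1 and 82.9% in replicate 2. Gm28438 holds 75.7% and 77.8% of those of the mt-Nd3 pair, and Gm28661 holds 38.4% and 41.4% of those of the mt-Co2 pair. Gm29216, which repeats only the last 492 bases of mt-Co1, holds 27.6% and 30.9%. Gm28439 repeats the first 876 bases of mt-Nd4 and was given 0 reads in replicate 1 and 4.05 estimated reads in replicate 2, where mt-Nd4 had 29338 and 58354. In every pair the shares of the 2 libraries lie within 4 percentage points of each other.

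The tables also hold a posterior mean of each count, with its SD, and for several pairs it is far from the expected count. By posterior means Gm28437 holds 65.3% of its pair's reads in replicate 1 and 62.0% in replicate 2, with a posterior SD of 22.9 and 24.6 percentage points. For Gm10925 the share becomes 18.2% and 15.6%, with an SD of 10.5 and 8.71 points. The share of Gm28661 is 35.8% and 36.0%, with an SD of 13.1 and 16.2 points. By contrast the SD for Gm29216 is 0.117 and 0.116 points, and its share is the same by either estimate to 3 digits. In each library the pairs of mt-Co2, mt-Atp6, mt-Co3 and mt-Nd4l, in which neither row has more than 3 private windows, have a larger SD than the other 3 pairs.

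Such width is rare in the libraries. Of the 20 members with at least 1000 posterior mean reads in both libraries, 7 have a posterior SD of at least 10% of the mean in both. Among all Ensembl rows with as many reads the share is 0.334% (13 of 3887), and those 13 include the 7 members. They are mt-Co2, mt-Atp6, mt-Co3, mt-Nd3, Gm28661, Gm10925 and Gm28437. The credibility bounds of mt-Co3 run from 824 to 6524 TPM in replicate 1 and from 972 to 7324 TPM in replicate 2. Gm10222 had 16.4% and 4.69%, and mt-Nd4l, with 54.8% and 21.3%, was below the read minimum in both libraries. The 7 genes whose windows are all private have a posterior SD of 0.

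**Figure D1:**
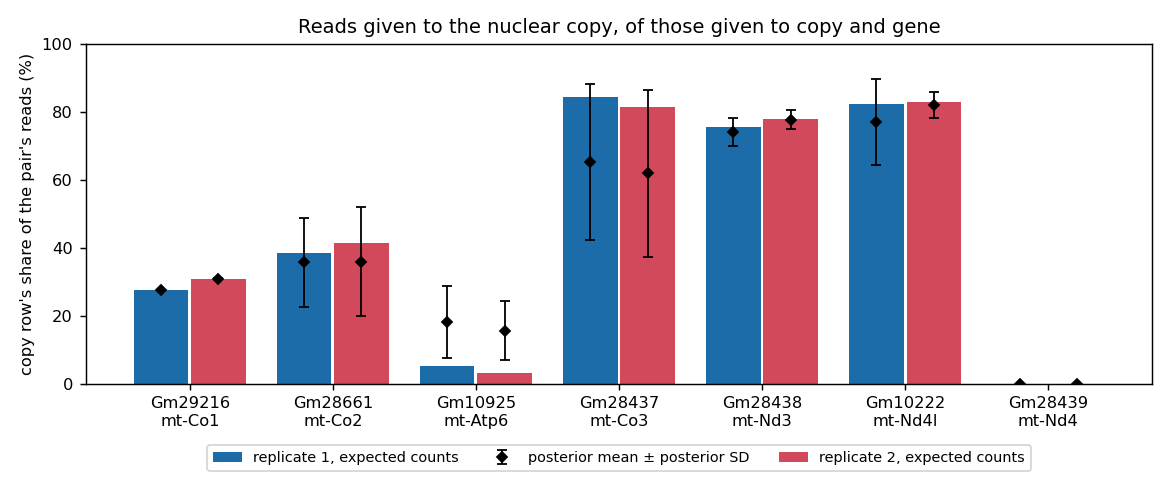
Share of each pair's reads given to the nuclear copy row, in percent, with bars for expected counts in replicate 1 (blue) and replicate 2 (red) and diamonds for posterior means with their posterior SD. The bars of neighbouring Gm10925 and Gm28437 stand at 5.10% and 84.5% in replicate 1, and the SD of the pairs of mt-Co2, mt-Atp6 and mt-Co3 is 8.71 to 24.6 points.

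Because the division rests on so few bases, each copied gene is given below by its deposited TPM and also by a joint level, in which the copy's reads are added to the gene's and divided by the gene's effective length. The joint level does not use the division, but it counts any RNA made from chromosome 1 as mitochondrial. Levels are per length, and those of short genes depend on the length used. The libraries were primed from poly(A) tails and amplified, and how evenly this took in each gene was not tested. The order of genes is therefore an order of these values. Fewer mitochondria-rich cells and less mitochondrial RNA per cell cannot be told apart in pooled tissue.

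The 2 complex V subunits, which form part of the proton channel and stator side of the ATP synthase, were among the highest genes of the libraries. mt-Atp6 (chrM, 7927 to 8607) had 7004 TPM in replicate 1 and 7059 TPM in replicate 2, and 7381 and 7298 TPM with its copy's reads. It ranked 9 among the Ensembl rows by mean TPM, and Gm28437 ranked 8. mt-Atp8 (chrM, 7766 to 7969) had 5024 and 5233 TPM and ranked 12. These levels differ little between the libraries. The value of mt-Atp8 depends on its short length: of 204 bases 105 count as effective, and dividing by the whole length in every row gives a mean of 3024 TPM in place of 5129. Its sequence is shown (chrM:7766-7969, plus strand, mm10), with capitals for the 43 bases it shares with the start of mt-Atp6, an overlap shorter than a read.
mt-Atp8: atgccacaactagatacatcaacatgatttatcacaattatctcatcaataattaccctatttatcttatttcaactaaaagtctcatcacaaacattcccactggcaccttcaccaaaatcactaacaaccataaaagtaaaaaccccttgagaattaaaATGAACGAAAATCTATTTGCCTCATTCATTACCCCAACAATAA

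Each of the 3 subunits of cytochrome c oxidase, complex IV, has a copy row. mt-Co3 (chrM, 8607 to 9390), a core subunit without a redox centre, had 1358 TPM in replicate 1 and 1722 TPM in replicate 2 as deposited. With the reads of Gm28437 it had 8740.0 and 9328 TPM, 6.43 and 5.42 times as much. It stands in place 7 among the 13 coding genes by the deposited mean and in place 1 by the joint mean. mt-Co2 (chrM, 7013 to 7696), which accepts electrons from cytochrome c, had 2524 and 2447 TPM as deposited and 4094 and 4175 TPM jointly, and kept place 4. mt-Co1 (chrM, 5328 to 6872), the catalytic subunit, had 2045 and 2078 TPM as deposited and 2825 and 3006 TPM jointly, in place 6 either way.

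Complex III has a single mitochondrial subunit, cytochrome b, whose gene has no copy row here. mt-Cytb (chrM, 14145 to 15288) had 2349 TPM in replicate 1 and 2555 TPM in replicate 2.

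The 7 subunits of complex I, the NADH dehydrogenase, covered a wide range. mt-Nd1 (chrM, 2751 to 3707), at the junction of the membrane arm and the peripheral arm, was the highest, with 3370.4 TPM in replicate 1 and 3268 TPM in replicate 2. The proton-pumping subunits were lower: mt-Nd4 (chrM, 10167 to 11544) had 776 and 1553 TPM, mt-Nd2 (chrM, 3914 to 4951) 566 and 701 TPM, and mt-Nd5 (chrM, 11742 to 13565) 302 and 535 TPM. Each of these had fewer TPM in replicate 1, though mt-Nd2 turns to higher in replicate 1 when centred on spike-ins. mt-Nd3 (chrM, 9459 to 9806), a small membrane subunit, had 355 and 417 TPM as deposited and 1460.0 and 1879 TPM with the reads of Gm28438. mt-Nd4l (chrM, 9877 to 10173), another small membrane subunit, had 48.7 and 148 TPM as deposited and 276 and 866 TPM with the reads of Gm10222.

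mt-Nd6 (chrM, 13552 to 14070), a membrane subunit of complex I, is the only coding gene on the minus strand. It had 513 TPM in replicate 1 and 714 TPM in replicate 2. The sources used here do not say whether counting used strand, so reads of mt-Nd6 and of plus-strand RNA across it, including the 14 bases it shares with mt-Nd5, cannot be told apart.

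By joint level the order of the coding genes was mt-Co3 (mean 9034 ± 416 TPM, SD, n = 2), mt-Atp6 (7339.5 ± 58.2), mt-Atp8 (5129 ± 147), mt-Co2 (4135 ± 57.3), mt-Nd1 (3319 ± 72.5), mt-Co1 (2915 ± 129), mt-Cytb (2452 ± 146), mt-Nd3 (1669 ± 296), mt-Nd4 (1165 ± 549.5), mt-Nd2 (633 ± 95.0), mt-Nd6 (613 ± 142), mt-Nd4l (571 ± 417) and mt-Nd5 (419 ± 164). Among the 12 pairs of neighbours in this order, 4 have overlapping values in the libraries, namely mt-Nd3 with mt-Nd4, mt-Nd2 with mt-Nd6, mt-Nd6 with mt-Nd4l and mt-Nd4l with mt-Nd5. The values of the upper 7 genes do not overlap, and those of the lower 6 mostly do. The place of mt-Atp8 depends on the length used: with annotated lengths its mean was 3024 TPM, below mt-Nd1 at 3409 TPM. The highest gene was 31.6 times the lowest in replicate 1 and 17.4 times in replicate 2 by joint level. As deposited these spans were 144 and 47.7.

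**Figure D2:**
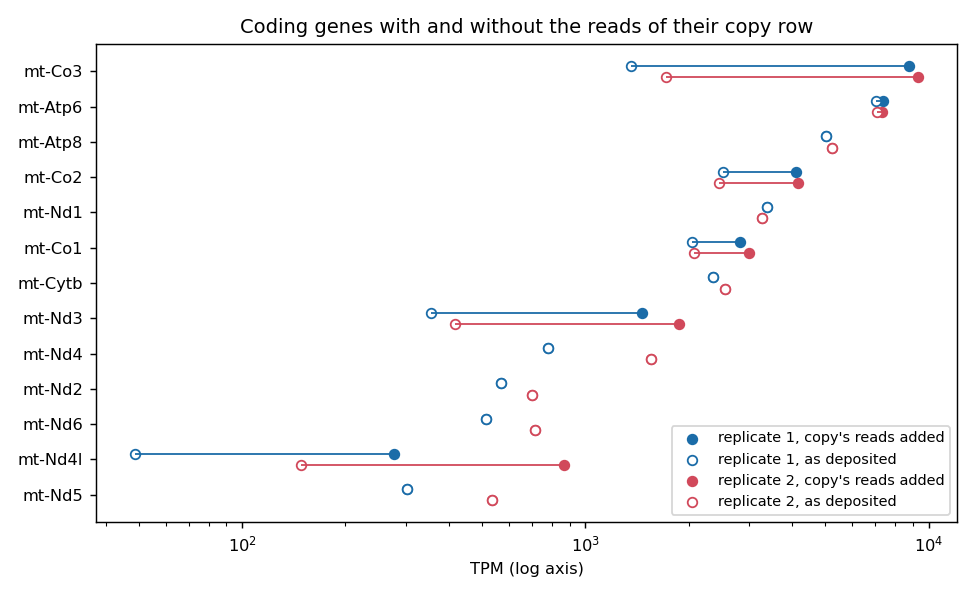
TPM of the 13 coding genes (log axis) in replicate 1 (blue) and replicate 2 (red), as deposited (open circles) and with the reads of the nuclear copy row added (filled circles, joined by a line; drawn for genes where the copy changes the value). mt-Co3, mt-Nd3 and mt-Nd4l move by 4.11 to 6.43 times, and mt-Atp6 by 1.03 and 1.05 times.

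The copy rows themselves, taken as deposited, would count among the expressed genes of this tissue. Gm28437 (chr1, 24613189 to 24613971) had 7392 TPM in replicate 1 and 7618 TPM in replicate 2, and Gm29216 (chr1, 24615706 to 24616197) had 2868 and 3416 TPM. Gm28661 (chr1, 24614885 to 24615565) had 1579 and 1737 TPM, and Gm28438 (chr1, 24612775 to 24613119) had 1118 and 1480.1 TPM. These 4 rows all had fewer TPM in replicate 1, but centred on spike-ins all 4 were higher in replicate 1, by 0.01 to 0.37 on the log2 scale. Gm10925 (chr1, 24613974 to 24614651) had 378 and 240.5 TPM, Gm10222 (chr1, 24612407 to 24612700) had 231 and 729 TPM, and Gm28439 (chr1, 24611535 to 24612410) had 0 and 0.18 TPM. The annotation holds 1951 rows of unprocessed pseudogenes, and their sum came to 1.36% of the TPM of replicate 1 and 1.54% of that of replicate 2. The 7 copy rows make up nearly all of it, at 1.36% and 1.52%.

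**Figure D3:**
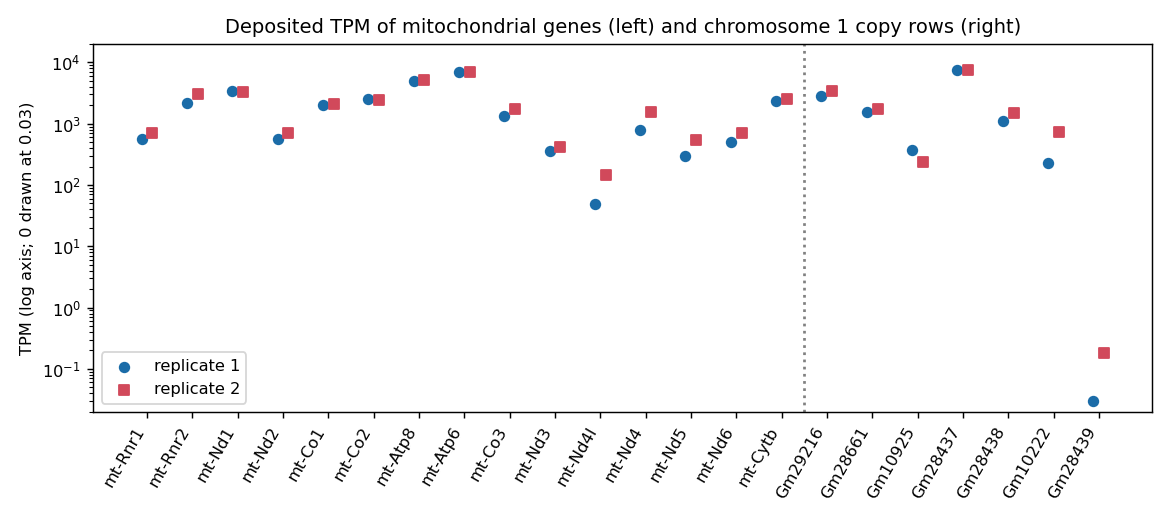
Deposited TPM (log axis) of the 13 coding and 2 rRNA genes of the mitochondrial chromosome, in their order on it, and of the 7 copy rows on chromosome 1, with circles for replicate 1 and squares for replicate 2. Gm28437 lies at 7392 and 7618 TPM, as high as mt-Atp6, and Gm28439 lies at 0 and 0.18 TPM.

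Summed by class, the coding genes took 2.62% of all TPM in replicate 1 and 2.84% in replicate 2, a mean of 2.73% ± 0.155 (SD, n = 2). With the copy rows this becomes 3.98% and 4.36%, a mean of 4.17% ± 0.272. In shares of reads rather than TPM, the coding genes held 1.57% and 1.78%, the copy rows 0.679% and 0.740%, and all members 2.58% and 2.98%. The copy rows summed to 0.974 ± 0.0179 times the TPM of the 7 genes they repeat (n = 2). Within the coding genes, complex V took 1.20% and 1.23% of TPM as deposited, complex I 0.593% and 0.733%, complex IV 0.593% and 0.625%, and complex III 0.235% and 0.256%. The place of complex IV in this order depends on the division of reads. Its genes summed to 5927 and 6247 TPM as deposited, while mt-Co3 alone had 8740.0 and 9328 TPM jointly.

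The rRNA genes encode the RNAs of the small and large subunits of the mitochondrial ribosome. mt-Rnr1 (12S, chrM, 70 to 1024) had 573 TPM in replicate 1 and 718 TPM in replicate 2. mt-Rnr2 (16S, chrM, 1094 to 2675) had 2163 and 3045 TPM. Both had fewer TPM in replicate 1, though mt-Rnr1 turns to higher in replicate 1 when centred on spike-ins, and mt-Rnr2 was 3.77 and 4.24 times as high as mt-Rnr1. Together they took 0.325% ± 0.0726 of TPM (n = 2). SmartSeq priming starts from poly(A) stretches, so these values do not measure ribosomes.

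The tRNA genes could not be measured. Their 22 rows are 59 to 75 bases long, their effective length is 0 and no read was given to any of them. The same holds for every transcript row under 100 bases in the tables, of which there are 28416. RNA of at most 200 bases was also outside the size range in the labels.

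The differences of most members between the libraries were small. Ratios are log2 of replicate 1 over replicate 2 with 1 TPM added to each value, centred on the median of all genes whose mean reaches 10 TPM, so a negative value means lower in replicate 1. At least 2-fold apart were 2 of 21 members and 51.1% of those genes (3474 of 6801). The means of the 21 run from 98.4 to 7505 TPM, and within that range 19% of all genes were 2-fold apart. The median absolute ratio was 0.28 for the 21 members and 0.46 for all 1512 genes within their range. The low end of that range is set by mt-Nd4l alone, which ranked 1519 among the Ensembl rows by mean TPM. The next member, Gm10925, had a mean of 309 TPM and ranked 500. Most genes of the range therefore lie below every other member, so the members and these genes are not matched in level.

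Both members past 2-fold were lower in replicate 1, in which direction 25.2% of genes passed. They are mt-Nd4l at -1.56 and its copy Gm10222 at -1.63, which share their windows and are not separate observations. With copies joined to genes, mt-Nd4l lay at -1.62. Further along the circle mt-Nd4 lay at -0.97 and mt-Nd5 at -0.80, while mt-Nd3, on the other side of mt-Nd4l, lay at -0.34. The genes mt-Nd4l and mt-Nd4 overlap by 7 bases. Whether their reads come from the same RNA was not tested, so they may not be separate observations. mt-Nd4 is 2.00-fold apart before centring. The remaining genes lay between -0.47 for mt-Rnr2 and 0.07 for mt-Nd1. The coding genes from mt-Co1 to mt-Co3 lay within 0.10 of 0.

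The direction of most of these small differences depends on the scale. Centred on the median of genes, 13 of the 15 coding and rRNA genes were lower in replicate 1. Spike-ins held 5.83% of the TPM of replicate 1 and 7.68% of that of replicate 2, and centring on their median moves every ratio up by 0.39. On that scale 5 of 15 were lower and 10 higher. mt-Nd4l at -1.23, mt-Nd4 at -0.58 and mt-Nd5 at -0.40 stayed negative, as did mt-Nd6 and mt-Rnr2 near 0.

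**Figure D4:**
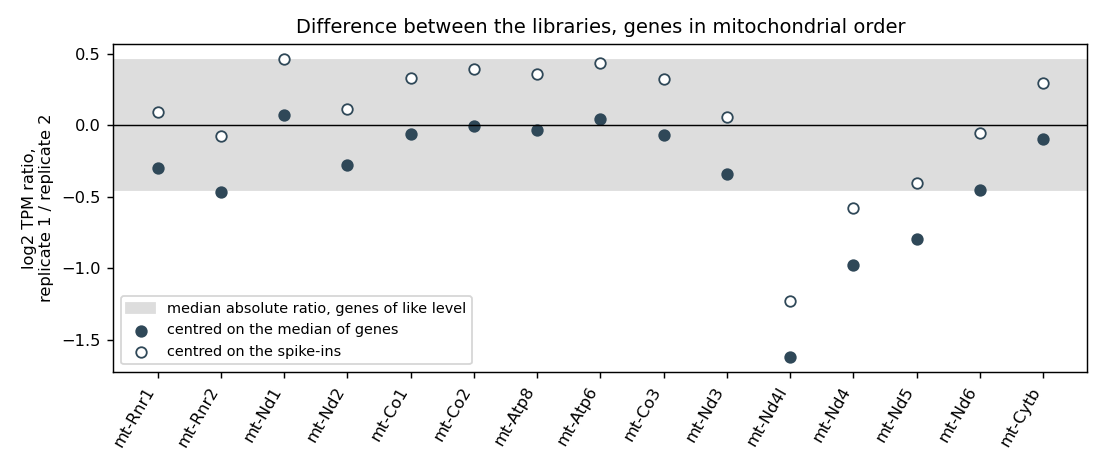
Log2 ratio of replicate 1 over replicate 2 for the 15 coding and rRNA genes with copies joined, in their order on the mitochondrial chromosome, centred on the median of genes (filled) or of spike-ins (open). The grey band is the median absolute ratio of all genes within the members' range of TPM, 0.46 either side of 0. When centred on genes, mt-Nd4l, mt-Nd4, mt-Nd5 and, just past its edge, mt-Rnr2 lie below the band.

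In each complex the median joint level of the mitochondrially encoded subunits was above the median of the nuclear subunits listed, a list chosen with results of these data known. Single genes overlapped in complex I, where mt-Nd4l, at a joint level of 276 TPM in replicate 1, was below the nuclear median. By joint level the median of the complex V genes was 6202 TPM in replicate 1 and 6266 TPM in replicate 2, against 667 and 716 TPM for 14 nuclear subunits, or 9.30 and 8.75 times as high. For complex IV the medians were 4094 and 4175 TPM for the mitochondrial genes and 741 and 755 TPM for 10 nuclear subunits, a ratio of 5.52 and 5.53. With deposited TPM that ratio was 2.76 and 2.75. Each of these ratios was close to equal in the libraries.

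For complex III, mt-Cytb was 4.42 and 3.84 times the median of 9 nuclear subunits, which was 531 TPM in replicate 1 and 666 TPM in replicate 2. For complex I the joint median was 566 and 866 TPM for the mitochondrial genes and 292 and 338 TPM for 7 nuclear core subunits, a ratio of 1.94 and 2.56. Only core subunits were listed for complex I, and the other lists were not limited in this way. The ratio of complex I is therefore not on a par with those of the other complexes. Every nuclear subunit matched to a row was detected in both libraries. Of the 16 symbols listed for complex V, which include older and newer names of the same gene, 2 were not matched. The highest were Atp5b (the catalytic beta subunit, mean 2218 TPM), Atp5g1 (a subunit of the membrane ring, 1275 TPM) and Atp5g3 (encoding the same ring protein, 1217 TPM) in complex V. In complex IV they were Cox6b1 (1570.5 TPM), Cox8a (1382 TPM) and Cox4i1 (1097 TPM), which surround the mitochondrially encoded core. In complex III Uqcr10 (1106 TPM), Uqcr11 (1097 TPM) and Uqcrq (953 TPM), all small accessory subunits, led. Among the 7 core subunits listed for complex I, Ndufs7 (511 TPM), Ndufv2 (442 TPM) and Ndufs3 (311 TPM), which are subunits of its peripheral arm, were the highest.

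**Figure D5:**
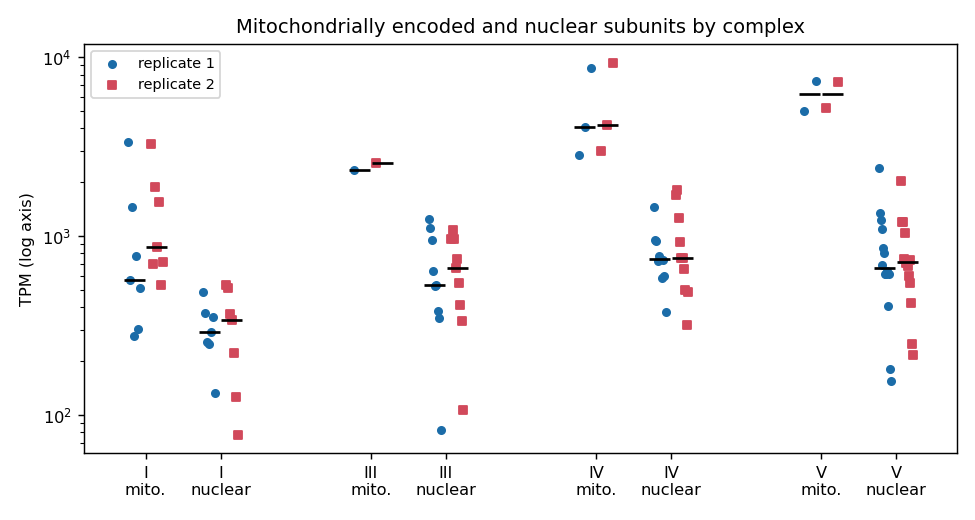
TPM (log axis) of mitochondrially encoded subunits, with copy reads joined, beside nuclear subunits of complexes I (core subunits only), III, IV and V, with circles for replicate 1, squares for replicate 2 and black bars for medians. Medians of the mitochondrial genes are 1.94 to 9.30 times those of the nuclear subunits.

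The nuclear genes that replicate, transcribe, process and translate the mitochondrial genome were measured at much lower levels. Of 58 symbols listed, 56 were matched to a row. Of these, 36 were detected in both libraries, against 15% of all Ensembl rows, 7 only in replicate 1, 10 only in replicate 2 and 3 in neither. No share over all rows is given here for detection in a single library, so those counts have nothing to be set against. Their median was 28.2 TPM in replicate 1 and 23.8 TPM in replicate 2. The highest were Slirp, an RNA-binding partner of LRPPRC that stabilises mitochondrial mRNAs, with 337 and 332 TPM, Cox14, an assembly factor that takes part in synthesis of the COX1 protein, with 160.0 and 277 TPM, and Ssbp1, the single-stranded DNA-binding protein of mitochondria, with 168 and 214 TPM. Ptcd1, Mterf1b and Taco1, the translational activator of mt-Co1, were under 1 TPM in both libraries. Among the genes called in a single library, Polrmt, the mitochondrial RNA polymerase, had 12.5 TPM in replicate 1 and 0 in replicate 2. Tfb2m, its initiation factor, had 0 and 13.5 TPM. These last examples were picked after their values were seen.

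Most hepatoblast and erythroid markers were high in this RNA, whose label names liver. Hepatoblast markers were detected in both libraries for 7 of 8 genes, led by Afp (mean 4443 TPM), Apoa2 (2358 TPM) and Trf (1807 TPM), and Hnf4a in replicate 1 alone. All 8 erythroid markers were detected, led by Hba-a2 (30190.3 TPM), Hbb-y (16815 TPM) and Hba-a1 (15162 TPM). Of 4 macrophage markers, C1qb (mean 81.9 TPM) and Adgre1 (5.38 TPM) were detected in both libraries, while Csf1r (11.7 TPM) and C1qa (7.34 TPM) were at 0 in replicate 2. Of 4 endothelial markers, Lyve1 (33.6 TPM) and Kdr (7.87 TPM) were detected in both, while Pecam1 (3.44 TPM) was at 0 in replicate 1. Mesenchymal markers were detected in both for 3 of 4 genes, Col3a1 (105 TPM), Dcn (72.3 TPM) and Col1a1 (49.4 TPM). Markers of heart muscle, a neighbouring tissue rich in mitochondria, were low and differed between the libraries. Such differences were common, since 51.1% of all genes with a mean of at least 10 TPM were 2-fold apart. No share over all rows is given for detection in a single library. Of the 6 heart markers 2 were detected in both, 3 only in replicate 2 and Nppa in neither. They summed to 50.2 TPM in replicate 1 and 235 TPM in replicate 2. Myl7 was at 0 in replicate 1 and 93.5 TPM in replicate 2, Actc1 had 43.5 and 30.3 TPM, and Myh6 had 6.62 and 38.7 TPM. The source of these reads, and their part in the difference of mt-Nd4l, mt-Nd4 and mt-Nd5 between the libraries, were not tested.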

How the data were processed

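Both libraries came with gene and transcript tables. Per the file headers, the deposited tables give expected counts (estimated reads that need not be whole), TPM, FPKM, effective lengths, posterior mean counts with their SD, posterior mean TPM and credibility bounds. Deposited FPKM values were not used. The labels name mm10. The tables follow GENCODE release M4, and symbols, coordinates and transcript sequences were taken from release M21, of the same build, for 42462 of 43346 identifiers. For the aligner, quantifier and strand setting, names and versions were not given in the sources used here.

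Computed here, with Python 3.11.15, numpy 2.4.6 and pandas 2.3.3, were shares, joint levels, 100-base windows, ungapped alignment of copies to genes, and log2 ratios (pseudocount 1, mean TPM of at least 10, 2-fold rule). The low end of such ratios is understated. The ratio step was checked on simulated data with counting error only. The libraries differ by far more than that, so the check does not cover how often the 2-fold rule is passed here. Every coding and rRNA gene and copy row is named, and of each list the 3 highest and up to 3 that stayed under 1 TPM throughout. Members and lists were chosen with earlier results of these data known. With 1 group no test applies. A row at 0 is limited to 3 reads (CPM 0.0901 for replicate 1, 0.092 for replicate 2), for counting error only, since PCR copies are not independent molecules. Chi-square per degree of freedom between the replicates was 814 over 11205 genes, so they are not the same library. Alternatives changed the unit, abundance estimate, length, total, table, thresholds, pseudocount and centring, and left out each replicate.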

Additional observations from a re-analysis of the deposited data

How the results depend on the processing

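The share of TPM of the 13 coding genes, 2.73%, was 1.67% as a share of reads, 2.54% with annotated lengths, 2.93% without spike-ins in the total and 4.17% with copy rows added. The share of the copy rows, 1.44%, was 0.709% of reads and 1.31% by posterior mean TPM. Copy TPM over the TPM of the copied genes, 0.974, was 0.709 in reads, 0.849 by posterior means and 0.934 with annotated lengths. Leaving out each replicate gave 2.62% to 2.84% for the coding genes, 1.36% to 1.52% for the copy rows, 0.274% to 0.376% for the rRNA genes and 0.961 to 0.987 for that ratio. With 2 libraries such a value cannot move by more than the SD, so these ranges show no stability. Of the other alternatives to the shares and the ratio, 13 moved them by less than the SD, and the tRNA genes stayed at 0.

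For single genes and pairs, leaving out replicates aside, 24 values moved by less than the SD and 20 by more. By posterior mean TPM mt-Co3 was at 3229 TPM in place of 1540.0, and mt-Atp6 at 5986 in place of 7032. The division of reads by posterior mean counts was chosen after seeing the data. The number of members past 2-fold was 2, or 3 with spike-in centring (adding Gm10925, higher in replicate 1), without centring, or with a lower or no filter. Members detected stayed at 21 under each threshold tried. No paired analysis was possible because there is 1 group. The lowest coding gene, mt-Nd4l, had 285 estimated reads in replicate 1. Whether RNA is made from the copy on chromosome 1 was not tested.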
